A study of Mus musculus with 6 samples.

Results

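The core circadian feedback loop is described here by 9 genes in old and young mouse hearts. They are the activators Arntl (also known as Bmal1), Clock and Npas2, and the repressors Per1, Per2, Per3, Cry1, Cry2 and Ciart (also known as Chrono). The genes were taken by name, and all 9 were found among the 18005 gene symbols of the deposited tables. All 9 passed the filter on low counts and are among the 12893 genes tested. In old hearts all 3 activators were lower, 4 of the 6 repressors (Per1, Per2, Per3 and Ciart) were higher, and Cry1 and Cry2 did not pass the test. Of all genes tested, 11.4% passed as higher and 10.6% as lower in old hearts. The result for Clock was not stable. It passed in only 2 of the 6 fits that each leave out a library, and not with DESeq2 (adjusted p = 0.0513).

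RNA was sequenced from hearts of 3 old and 3 young mice, in libraries that select polyadenylated transcripts. The animals of both groups are labelled wild type and without treatment, and the series is titled as a study of heart hypertrophy with age. The labels state neither ages, strain and sex nor the time of day at which hearts were collected. Libraries are called old 1 to 3 and young 1 to 3 after their titles, and the numbers were taken as names of separate mice. Since the abundance of most of these transcripts changes over the day, age group and collection time cannot be told apart in any of the values that follow.

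As background, ARNTL pairs with CLOCK or with its paralog NPAS2, and the pair binds E-box sequences and activates transcription. Its targets include the Per and Cry genes and Ciart, whose proteins return to the nucleus and inhibit the same pair. A second arm, the stabilising loop, acts on Arntl and Npas2 through ROR elements, which REV-ERB proteins repress and ROR proteins activate. In heart muscle the clock gives daily rhythm to genes of metabolism and of electrical excitability, and Arntl transcripts peak at about the opposite time of day from those of Per2.

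The start regions of 4 members are shown because they carry matches to the elements named above and because these genes were called in the comparison of old with young hearts. Each run is the coding strand of 1 RefSeq start region of the GRCm38.p6 build, from 250 bases before to 50 bases after the start, and capitals mark motif matches. GRCm38.p6 is an older build than the GRCm39 of the submitters' notes, so positions here are not those of the count tables. The Ciart window lies at chr3:95882179-95882478 on the minus strand, the Per1 window at chr11:69098699-69098998 on the plus strand, the Per3 window at chr4:151044616-151044915 on the minus strand and the Arntl window at chr7:113207261-113207560 on the plus strand.
Ciart: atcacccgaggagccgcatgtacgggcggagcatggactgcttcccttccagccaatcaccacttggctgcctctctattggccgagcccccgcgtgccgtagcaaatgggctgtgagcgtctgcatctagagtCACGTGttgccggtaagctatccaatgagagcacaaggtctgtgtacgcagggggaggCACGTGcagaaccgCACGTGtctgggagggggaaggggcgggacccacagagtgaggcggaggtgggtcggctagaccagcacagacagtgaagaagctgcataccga
Per1: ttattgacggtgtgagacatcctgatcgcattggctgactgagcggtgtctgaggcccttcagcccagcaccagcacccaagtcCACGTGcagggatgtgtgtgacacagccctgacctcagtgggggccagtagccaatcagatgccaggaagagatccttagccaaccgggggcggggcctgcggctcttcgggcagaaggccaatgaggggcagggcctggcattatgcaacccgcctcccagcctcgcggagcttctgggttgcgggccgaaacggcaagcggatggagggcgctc
Per3: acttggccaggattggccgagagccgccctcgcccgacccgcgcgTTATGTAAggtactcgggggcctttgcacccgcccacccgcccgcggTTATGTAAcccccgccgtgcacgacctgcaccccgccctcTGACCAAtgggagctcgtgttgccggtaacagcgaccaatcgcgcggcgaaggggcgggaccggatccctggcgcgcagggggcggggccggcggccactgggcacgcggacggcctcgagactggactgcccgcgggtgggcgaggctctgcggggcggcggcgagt
Arntl: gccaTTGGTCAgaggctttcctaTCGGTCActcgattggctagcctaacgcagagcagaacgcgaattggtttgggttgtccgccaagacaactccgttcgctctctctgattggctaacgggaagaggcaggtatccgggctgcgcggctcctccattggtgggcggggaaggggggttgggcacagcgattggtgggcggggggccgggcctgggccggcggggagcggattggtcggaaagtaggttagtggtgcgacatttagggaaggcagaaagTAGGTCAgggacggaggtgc

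Both strands were searched for an E-box (CACGTG), an E'-box (CACGTT), a ROR element core (TNGGTCA), a D-box (TTANGTAA) and a cyclic AMP response element (TGACGTCA), where N is any base. Ciart held 3 E-boxes, beginning 116, 58 and 44 bases before the start. E-boxes were found in 7.15% of all 32851 start regions, and 3 or more of them in 29 regions. The Per1 window held 1 E-box, beginning 166 bases before the start, and the window of a second Per1 start held none of the 5 motifs. Per3 held 2 D-boxes, the element bound by DBP and its relatives, 205 and 158 bases before the start, against 2.32% of all start regions with at least 1. Its window also held 1 ROR element core on the other strand.

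The Arntl window held 3 ROR element cores, beginning 246 and 227 bases before the start and 30 bases after it. At least 1 such core was found in 11.0% of all start regions, and the share with several was not counted. The window of a second Arntl start overlaps the one shown and holds the first 2 of these matches. Of the members not shown, Cry1 held 1 E-box and 1 E'-box, and Cry2 held 1 E'-box and 1 ROR element core. None of the 5 motifs was found in the Npas2 window or in the 3 Clock windows. No matches overlapped each other in these windows. Start regions were found for 8 of the 9 members, Per2 being the other. A match is a run of letters and not a measured binding site.

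The libraries held between 11295280 and 12514005 counts each, and 1 count was worth 0.0774 to 0.0885 CPM. CPM stands here for counts scaled to a fixed library total after TMM correction for composition. All 12 heart muscle markers looked for were detected, with a summed level of 89993.7 to 94724 CPM in old and 79342.5 to 81418 CPM in young libraries. Genes were tested with edgeR's quasi-likelihood test over all 6 libraries, with p-values adjusted over the 12893 genes by the Benjamini-Hochberg method. The threshold for a call was 0.05. All log2 fold changes put old hearts over young hearts.

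Of the 9 members, 7 were called, 4 of them higher and 3 lower in old hearts. Over all genes tested 22.0% were called, 11.4% as higher and 10.6% as lower. For 8 of the 9 members the groups were fully apart, 4 with old above young and 4 with old below, against 39.9% of all genes tested (19.6% above and 20.3% below). The median log2 fold change was -1.60 over the 3 activators and 1.27 over the 6 repressors, against -0.01 over all genes tested. In bulk tissue fewer cells of a type and less RNA per cell cannot be told apart.

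**Figure D1:**
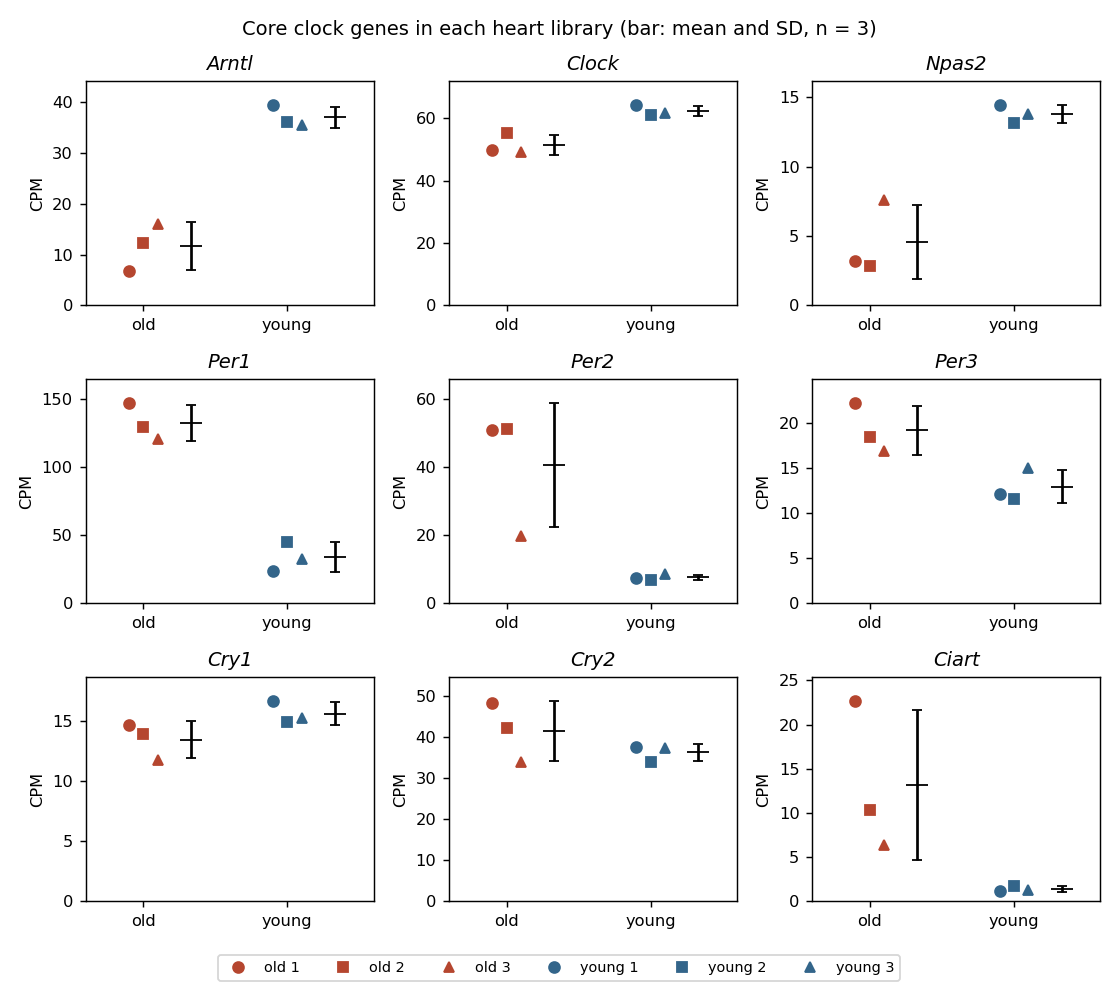
Level of each of the 9 core clock genes in CPM (vertical axis, from 0) in every old (left) and young (right) heart library. Symbols are single libraries and bars the mean and SD of 3, and the groups overlap in the Cry2 panel and in no other.

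Among the activators, Arntl, whose protein is the shared partner of CLOCK and NPAS2, had the lowest p. It stood at 6.73, 12.4 and 16.1 CPM in old 1, 2 and 3, against 39.4, 36.0 and 35.5 CPM in young 1, 2 and 3. Every old library lay below every young one, and the old libraries differed among themselves far more than the young ones. The means were 11.7 ± 4.73 CPM in old and 37.0 ± 2.13 CPM in young hearts (SD, n = 3 each). The log2 fold change was -1.65 ± 0.21 (SE), 0.318 of the young level, with an edgeR adjusted p of 0.000224.

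Npas2, which can take the place of CLOCK beside ARNTL, had 3.19, 2.85 and 7.63 CPM in the old libraries, against 14.4, 13.2 and 13.8 CPM in the young ones. The groups lay apart, and old 3 stood above old 1 and old 2. The log2 fold change was -1.60 ± 0.27 (SE, edgeR adjusted p = 0.00177). Leaving out old 3 gave -2.18, and leaving out old 2 gave -1.34. Npas2 was called in each of the 6 fits that leave out 1 library, as was Arntl, whose value then lay between -1.94 and -1.37.

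Clock, the more abundant of the 2 partners of ARNTL in these hearts, changed little. It had 49.8, 55.1 and 49.2 CPM in the old libraries, against 64.2, 61.1 and 61.7 CPM in the young ones. The old libraries were all below the young ones by a small margin, at -0.28 ± 0.08 on the log2 scale (SE, edgeR adjusted p = 0.0295). The call was lost without old 1, old 3, young 1 or young 3, with edgeR adjusted p between 0.0655 and 0.121 in these 4 fits, and with DESeq2 (adjusted p = 0.0513).

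The change of Npas2 was therefore set against that of Clock within each library, as the log2 ratio of their deposited FPKM, a level per length of gene that does not depend on the scaling between libraries. This ratio was -2.74, -3.05 and -1.47 in the old libraries, against -0.93, -0.99 and -0.94 in the young ones. Npas2 was thus less abundant than Clock in every library, and the gap was wider in each old library than in any young one. The difference of the means was -1.47, with an exact 2-sided permutation p of 0.1, the smallest that 3 against 3 libraries allow. Over the 9 ratios compared here, its adjusted p was 0.113.

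The period genes encode the proteins that carry the cryptochromes into the inhibiting complex. Per1, which is also known to respond quickly to glucocorticoid and cyclic AMP signals, had 147, 129 and 121 CPM in the old libraries, against 23.5, 45.2 and 32.9 CPM in the young ones. The lowest old library lay well above the highest young one, and here it was the young libraries that spread more. The means were 133 ± 13.3 CPM in old and 33.9 ± 10.9 CPM in young hearts (SD, n = 3 each), which is 1.97 ± 0.18 higher on the log2 scale (SE, edgeR adjusted p = 2.69e-05). By its p, Per1 stood at place 73 of the 12893 genes tested, ahead of every other member.

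Per2, whose protein is a main scaffold of the repressing complex, had 50.9, 51.2 and 19.7 CPM in the old libraries, against 7.57, 6.85 and 8.51 CPM in the young ones. Old 1 and old 2 were alike, and old 3 lay between them and the young libraries. The log2 fold change was 2.40 ± 0.30 (SE, edgeR adjusted p = 0.000255), and 2.74 without old 3.

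Per3, a paralog that is known to be dispensable for rhythm in mice, had 22.2, 18.5 and 16.9 CPM in the old libraries, against 12.2, 11.6 and 15.0 CPM in the young ones. The groups came close to each other at old 3 and young 3 but did not overlap. The log2 fold change of 0.57 ± 0.13 (SE) was called with an edgeR adjusted p of 0.0117. The call was lost without young 1 (edgeR adjusted p = 0.0542) and with limma on log2(FPKM + 1) with no filter on low values (adjusted p = 0.0961).

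The 3 period genes did not differ alike between the groups. The log2 ratio of Per1 to Per3 was 2.41, 2.49 and 2.52 in the old libraries, against 0.63, 1.65 and 0.81 in the young ones, with no overlap and a difference of the means of 1.44. The ratio of Per2 to Per3 was 1.36, 1.63 and 0.38 in the old libraries, against -0.52, -0.60 and -0.66 in the young ones, so that Per2 was the more abundant of this pair per length in every old library and the less abundant in every young one. Both comparisons had the smallest possible exact permutation p of 0.1 (adjusted p = 0.113).

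Between Per1 and Per2 the groups overlapped. Their log2 ratio was 1.05, 0.86 and 2.14 in the old libraries, against 1.16, 2.25 and 1.47 in the young ones (difference of the means -0.27, exact 2-sided permutation p = 0.5). Old 3 held the highest ratio of the old group.

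The cryptochromes, the main inhibitors of the activating pair, showed the smallest differences among the repressors. Cry1 had 14.7, 14.0 and 11.8 CPM in the old libraries, against 16.7, 14.9 and 15.3 CPM in the young ones. The groups did not overlap, but the difference of -0.22 ± 0.12 on the log2 scale (SE) missed the threshold (edgeR adjusted p = 0.202), with a 95% interval of -0.47 to 0.04. Cry1 was not called in any of the 18 alternative fits with edgeR, DESeq2 or limma, and its unadjusted edgeR p was 0.0866.

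Cry2 had 48.3, 42.2 and 33.8 CPM in the old libraries, against 37.6, 33.9 and 37.4 CPM in the young ones, and old 3 was below all young libraries. Its log2 fold change was 0.19 ± 0.12 (SE, edgeR adjusted p = 0.273), with a 95% interval of -0.07 to 0.45. It was called in 1 of the 18 alternative fits, that without old 3, at 0.33 (edgeR adjusted p = 0.0269).

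The log2 ratio of Cry1 to Cry2 was -1.66, -1.53 and -1.46 in the old libraries, against -1.11, -1.13 and -1.23 in the young ones. The old libraries all held less Cry1 for each Cry2 than any young library, by -0.40 in the means (exact 2-sided permutation p = 0.1, the smallest possible, adjusted p = 0.113).

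Ciart, the repressor that binds the activating pair independently of the cryptochromes, differed most among the members. It had 22.7, 10.3 and 6.41 CPM in the old libraries, against 1.17, 1.76 and 1.32 CPM in the young ones. The groups were far apart, and old 1 held several times the level of old 3. The log2 fold change was 3.21 ± 0.45 (SE), 9.27 times the young level, with an edgeR adjusted p of 0.000512. The young values rest on 15, 20 and 17 counts, and the old ones on 256, 119 and 74 counts. Without old 1 the value was 2.57, and Ciart was called in all 18 alternative fits.

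**Figure D2:**
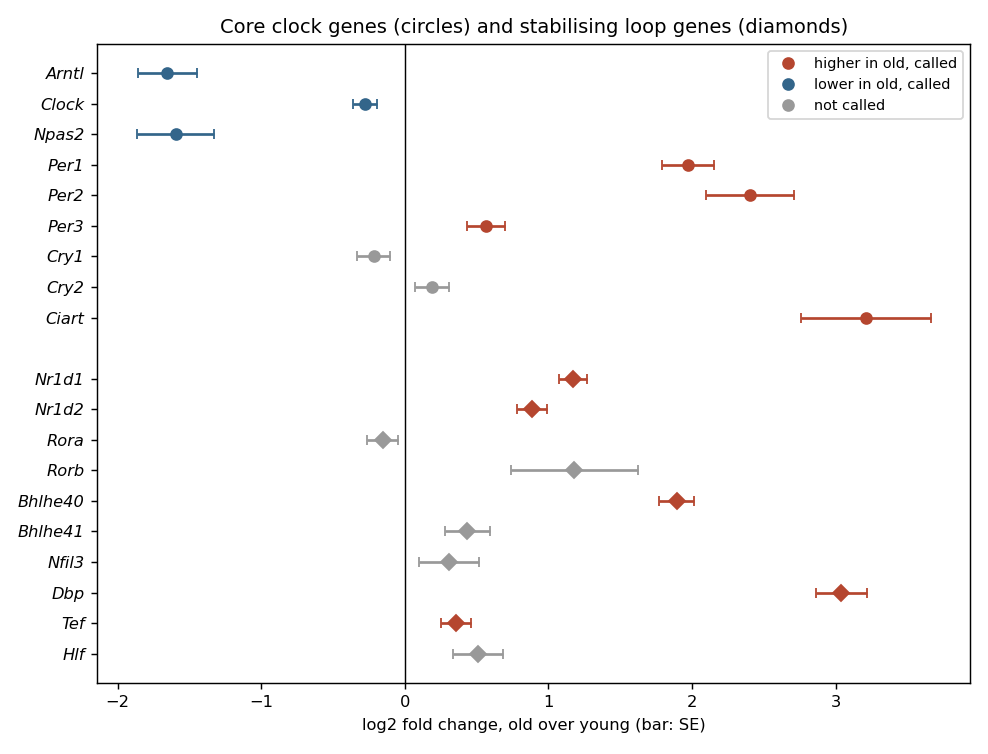
Log2 fold change of old over young hearts (horizontal axis) with its SE, for the 9 core clock genes (circles) and 10 genes of the stabilising loop (diamonds). Arntl, Clock and Npas2 lie below 0 as called genes, and Ciart at 3.21 and Dbp at 3.04 lie farthest above it.

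Set against Arntl in the same library, Per1, Per2, Cry1 and Ciart separated the groups without overlap. For Per1, Per2 and Ciart this was fixed by their own levels. Each was higher, and Arntl lower, in every old library than in any young one. Their ratios to Arntl, and the p-values of these, therefore restate the single genes and are no separate result. Per3 and Cry2 were not set against Arntl. The log2 ratio of Per2 to Arntl was 4.58, 3.72 and 1.95 in the old libraries, against -0.72, -0.73 and -0.40 in the young ones. The ratio of Ciart to Arntl was 4.77, 2.76 and 1.69 in the old libraries, against -2.05, -1.34 and -1.73 in the young ones. The sign of a ratio to Arntl depends on the gene lengths behind FPKM, and the difference between the groups does not. With the longest GENCODE vM21 transcript as the length of each gene, Per2 over Arntl came to 2.37, 1.51 and -0.26 in the old libraries, against -2.93, -2.94 and -2.61 in the young ones. Ciart over Arntl then came to 2.80, 0.78 and -0.29 in the old libraries, against -4.03, -3.31 and -3.71 in the young ones. At these lengths both repressors were below Arntl in old 3 as in the young libraries.

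Per1 over Arntl had log2 ratios of 5.64, 4.57 and 4.10 in the old and 0.44, 1.51 and 1.07 in the young libraries. At GENCODE lengths these were 4.23, 3.16 and 2.68 in the old and -0.97, 0.10 and -0.34 in the young libraries, so that which of the pair was more abundant in young hearts depends on the lengths. Cry1 itself was not called and lay lower in every old library than in any young one. A higher ratio of Cry1 to Arntl in old libraries thus restates the lower Arntl and is no separate result on Cry1. This ratio was 3.40, 2.46 and 1.83 in the old and 1.04, 1.01 and 1.06 in the young libraries. At GENCODE lengths it was 1.53, 0.58 and -0.051 in the old and -0.84, -0.87 and -0.81 in the young libraries. The 3 young values of this last ratio lay closer together than those of any other ratio compared. Each of these 4 ratios to Arntl had an exact 2-sided permutation p of 0.1, the smallest possible, and an adjusted p of 0.113. The 4 share the Arntl values, so they are not independent of each other.

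**Figure D3:**
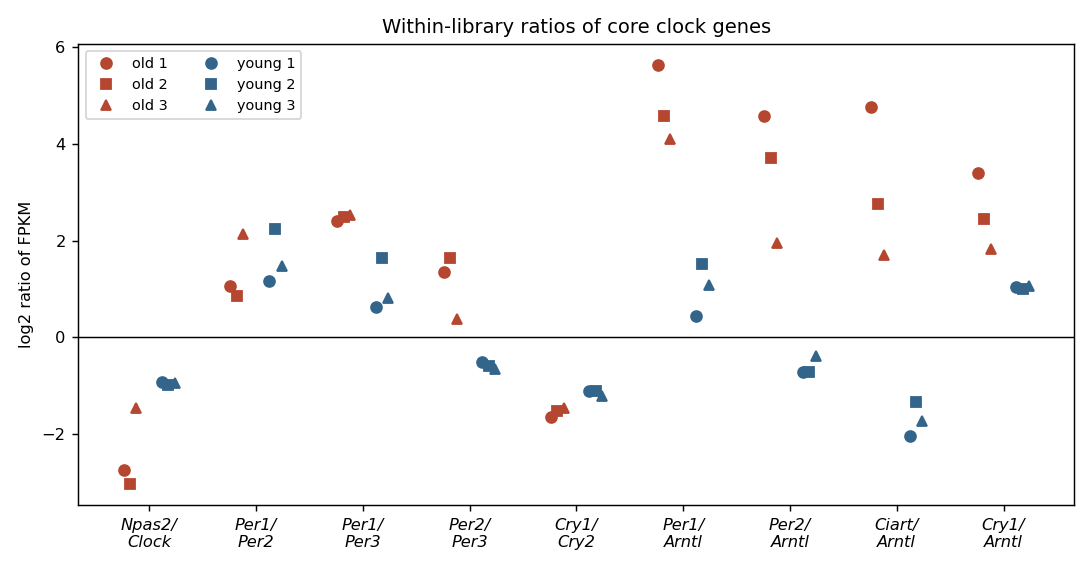
Log2 ratio of deposited FPKM of 2 core clock genes within each library (vertical axis), for 9 pairs, with old libraries left and young libraries right in each pair. The groups overlap for Per1 over Per2 alone, and Per2 over Arntl and Ciart over Arntl lie above 0 in old and below 0 in young libraries at the authors' gene lengths, but below 0 in old 3 as well at GENCODE lengths (-0.26 and -0.29).

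The old hearts did not form a uniform group for these genes. The median SD of log2 CPM over the 9 members was 0.26 among old and 0.08 among young libraries. Over all genes tested the corresponding medians were 0.14 and 0.11. Among the members, Ciart (0.91), Per2 (0.79), Npas2 (0.75) and Arntl (0.64) had the largest SD among old libraries, and Per1 was the member with the largest SD among young ones (0.47).

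Old 3 was the old library nearest to the young mean for 6 of the 7 called members, all but Clock. Of all 2835 called genes, old 3 was the nearest old library for 44.5%. Compared with the mean of old 1 and old 2 on the log2 scale, old 3 differed by 0.81 for Arntl and 1.29 for Npas2, and by -1.37 for Per2 and -1.23 for Ciart. For Per1 it differed by only -0.19. Old 1 lay farthest from the young mean for Arntl at -2.43 and for Ciart at 3.87.

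**Figure D4:**
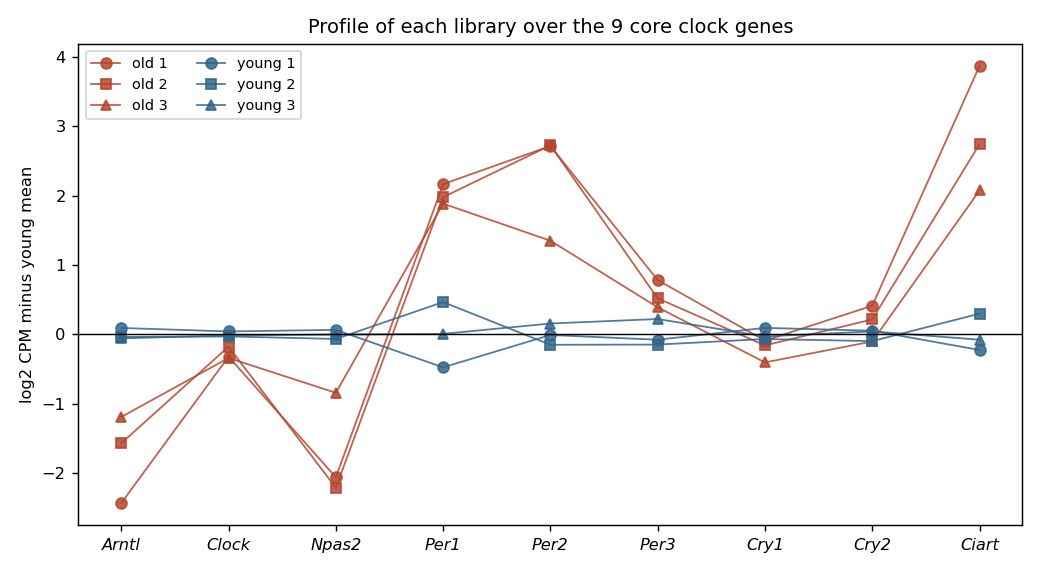
Log2 CPM of each library minus the young mean (vertical axis) for the 9 core clock genes, with lines joining the values of 1 library as a guide. The young libraries stay between -0.47 and 0.47. Old 3 lies nearer to 0 than the other old libraries for Arntl, Npas2, Per1, Per2, Per3, Cry2 and Ciart.

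The order of levels between members can be read only per length, and it is given first at the lengths behind the deposited FPKM. In old hearts Per1 came first with 15.2 ± 1.51 FPKM (SD, n = 3). It was followed by Cry2 (9.72 FPKM), Per2 (6.46 FPKM), Ciart (5.37 FPKM) and Clock (5.02 FPKM), whose neighbours in this order overlapped between libraries. Cry1 (3.30 FPKM) and Per3 (2.74 FPKM) came next and overlapped each other, and Npas2 (1.05 FPKM) and Arntl (0.593 FPKM) came last and overlapped as well.

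In young hearts Cry2 led with 9.02 ± 0.664 FPKM (SD, n = 3) and Clock was next with 6.44 FPKM, neither overlapping the gene after it. Per1 (4.09 FPKM) and Cry1 (4.05 FPKM) overlapped, Npas2 had 3.33 FPKM, and Arntl (1.97 FPKM) and Per3 (1.95 FPKM) overlapped. Per2 (1.29 FPKM) and Ciart (0.611 FPKM) were last. By their means, Per2 and Ciart were thus at the low end in young hearts and in the upper part of the order in old hearts. In old 1, 2 and 3 Ciart had 9.31, 4.14 and 2.67 FPKM, against 4.89, 5.30 and 4.89 FPKM for Clock. Ciart was thus above Clock in old 1 alone, and Per2 lay below Clock in old 3 (3.19 FPKM).

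The place of Arntl in this order depends on the length used by the authors. The deposited counts and FPKM imply a length of 19267 bases for Arntl, 4.82 times its longest GENCODE vM21 transcript of 3995 bases. For Per1 this factor was 1.81, and for the other 7 members it lay between 1.01 and 1.31. With the longest GENCODE transcript as the length of every member, Arntl had 2.86 ± 1.17 FPKM in old and 9.52 ± 0.665 FPKM in young hearts (SD, n = 3 each). In old hearts it then lay eighth, after Per3 (3.11 FPKM) and before Npas2 (1.05 FPKM), and overlapped both. In young hearts it came first, overlapping Cry2 (9.39 FPKM), and Per1 (7.42 FPKM) stood before Clock (6.57 FPKM), which it overlapped. Per2 (1.35 FPKM) and Ciart (0.748 FPKM) were last in young hearts at these lengths too. The differences between old and young hearts are the same at both sets of lengths.

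Genes whose profile over the 6 libraries lay nearest to that of a member, among 11719 genes whose mean log2 CPM reached 1, were taken by the root mean square distance between log2 CPM profiles centred on their mean. Arntl was followed most closely by Lhx6, a LIM homeobox gene, at a distance of 0.15 (Pearson r = 0.99, n = 6 libraries), then by the vasopressin receptor gene Avpr1a at 0.15 and by Spon2 at 0.20. Npas2 had Lratd2 at 0.17, Lhx6 again at 0.19 and Syt15 at 0.24. Nearest to Per1 were Coq10b (0.14), the transcription factor gene Cebpb (0.16) and Sh3gl2 (0.19).

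For Per2 the nearest were Noct, which encodes the rhythmic phosphatase nocturnin (0.28), the small Maf factor gene Maff (0.29) and the cochaperone gene Dnaja1 (0.29). Ciart had the clock output gene Dbp nearest (0.36), then the chaperone gene Hsph1 (0.38) and Maff (0.46). Per3 had B4galt5 (0.05) and Clock had Rab3d (0.02) nearest. These libraries fall into 2 groups, so much of each likeness is the shared difference between old and young.

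Of the 10 genes reported here of the stabilising loop and its bZIP and DEC factors, 5 rose and 5 did not pass the test (median log2 fold change 0.70). Among all genes tested 11.4% were called higher. Dbp, an activator at D-boxes, stood at 119, 76.6 and 74.2 CPM in the old libraries, against 10.2, 10.9 and 11.7 CPM in the young ones, which is 3.04 ± 0.18 higher on the log2 scale (SE, edgeR adjusted p = 1.32e-06). Nr1d1, which encodes the repressor REV-ERB alpha, had 150, 146 and 154 CPM in the old libraries, against 73.6, 57.5 and 68.8 CPM in the young ones. Its old values were tight, unlike those of Arntl and Npas2 in the same libraries.

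Nr1d2, which encodes REV-ERB beta, rose by 0.88 ± 0.10 on the log2 scale, and Bhlhe40, a repressor at E-boxes, by 1.89 ± 0.12 (SE, each called by edgeR). Rora, which encodes an activator at ROR elements, was not called (-0.15 ± 0.11, SE, edgeR adjusted p = 0.331) and had the lowest value of this list. The uncalled Rorb (1.18 ± 0.44), Hlf (0.51 ± 0.17), Bhlhe41 (0.44 ± 0.15) and Nfil3 (0.31 ± 0.21) lay above 0 (log2 fold change ± SE). Rorb was scarce, with means of 0.989 CPM in old and 0.422 CPM in young hearts. Tef rose by 0.36 ± 0.11, a call lost without old 1, old 2, young 1 or young 2. The Tef call was also lost with library size alone (edgeR adjusted p = 0.0689). It was lost too with limma on log2(FPKM + 1) at a mean FPKM of at least 1 (adjusted p = 0.0858). The list counted 8 higher genes without old 3.

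Of 15 tested genes for kinases and for enzymes of protein turnover that act on clock proteins, 1 rose and 4 fell (median log2 fold change -0.15). The shares over all genes tested were 11.4% higher and 10.6% lower. Usp2, a deubiquitinase with a known rhythm in many tissues, rose by 1.16 ± 0.12. Fbxw7, a ubiquitin ligase subunit gene, was lower at -0.41 ± 0.08, Prkaa1 at -0.48 ± 0.10, Gsk3b at -0.28 ± 0.09 and Ddb1 at -0.27 ± 0.09 (log2 fold change ± SE, called by edgeR). The number of lower genes was 2 without old 1, young 1 or young 3. Among the fits that leave out 1 library, Ddb1 was called only without young 2, and Gsk3b only without old 2 or young 2. The casein kinase genes Csnk1d (0.22 ± 0.08) and Csnk1e (0.17 ± 0.08), whose products phosphorylate PER proteins, did not pass the test.

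Of 17 genes for cofactors of the clock complexes, 3 fell and 14 did not pass the test, with a median log2 fold change of -0.06. Over all genes tested 22.0% were called, a larger share than in this list, and 10.6% were called lower. The 3 were Timeless (-0.47 ± 0.14), Prmt5 (-0.35 ± 0.09) and Nampt (-0.28 ± 0.09), the last of which encodes an enzyme of NAD synthesis. All 3 calls were lost without young 1 and without young 3, and 1 lower gene was left without old 1 or young 2.

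Other gene groups moved with the same division of libraries. Their counts stand beside 11.4% of all genes tested called higher. Of 26 immediate early genes, 24 rose and 2 did not pass the test, and their summed level was 2699 to 6326 CPM in old and 774 to 1239 CPM in young libraries. Old 3 stood apart, with a summed level of 6326 CPM against 2699 and 2817 CPM in old 1 and old 2, and it had the highest level of the 3 old libraries for 22 of the 26 genes. Fos, for example, had 31.9, 47.8 and 332 CPM in old 1, 2 and 3, against 4.53, 14.3 and 10.7 CPM in the young libraries. Old 3 is also the old library nearest to the young ones for most core clock genes. Of 18 glucocorticoid responsive genes, Per1 among them, 14 rose and 4 did not pass the test, with a summed level of 2144 to 2742 CPM in old and 1304 to 1647 CPM in young libraries. The part of these programmes in the levels of the clock genes was not tested.

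The summed level of the heart muscle markers was higher in every old library than in any young one. Of these 12 markers, 3 were called higher and 2 lower. Actc1, 1 of those called higher, had a mean of 17339 CPM in old and 8207 CPM in young libraries. Markers of other cell types overlapped between the groups in their summed level. This held for 10 endothelial markers (1888 to 2405 CPM in old and 2293 to 2539 CPM in young libraries), 10 fibroblast markers (3965 to 4933 CPM in old and 4054 to 4453 CPM in young libraries) and 10 smooth muscle and pericyte markers (1706 to 1906 CPM in old and 1672 to 1923 CPM in young libraries). It held as well for 12 macrophage markers (1042 to 1311 CPM in old and 956 to 1058 CPM in young libraries) and for the red blood cell, epicardial, fat cell and skeletal muscle lists. Only 1 of 6 fat cell markers (Fabp4) and 2 of 7 skeletal muscle markers (Acta1 and Tnni2) passed the filter on low counts. The sums of these 2 lists rest almost wholly on Fabp4 and on Acta1. While 22.0% of all genes tested were called, single markers were called in 6 of these lists of other cell types. There 4 macrophage markers rose and 1 fell, 3 smooth muscle and pericyte markers rose and 3 fell, and 2 fibroblast markers rose and 2 fell, Col3a1 among them (-0.66 on the log2 scale). Of the endothelial markers 1 rose and 2 fell, Kdr and Tek. The epicardial gene Wt1 rose 3.19-fold, and Hba-a2 of the red blood cell list fell by 1.51 on the log2 scale. None of the listed markers was at 0 in all libraries. Their part in the levels of the clock genes was not tested.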

How the data were processed

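The authors deposited gene counts (whole numbers per gene and library) and FPKM values (the counts divided by gene length and by library total). The library kit was TruSeq Stranded mRNA, per the labels' protocols. The submitters' processing notes name GRCm39 and the tools HISAT2, HTSeq, Trimmomatic, Cufflinks, DESeq, StringTie and Bowtie2, with no version or role, and whether counting used strand is not stated in the sources used here.

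The test was edgeR 4.0.16 under R 4.3.3 on the counts (filterByExpr, TMM, quasi-likelihood F test, no covariate), 3 old against 3 young libraries. The SE of a fold change is its size divided by the root of F. Libraries of the same group were not copies of each other (chi-square per degree of freedom 7.90 to 16.7). Ratios of FPKM within libraries were compared with exact permutation tests. Per-sample files equalled the joint tables. The gene test was tested on simulated data.

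All members are named, with every called gene of 3 clock lists (some clock genes are not reported here), uncalled genes chosen after their values were seen, and for each called member its nearest genes in profile. Members and lists were chosen with earlier results of these data known. Alternatives were other scalings and filters, a replicate block, omission of each library or of the 10 most abundant genes, DESeq2 1.42.0, limma-voom and limma 3.58.1 on log2(FPKM + 1) and log2(FPKM + 0.1).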

Additional observations from a re-analysis of the deposited data

How the results depend on the processing

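No member changed direction in any of its 18 alternative fits, and Arntl, Npas2, Per1, Per2 and Ciart were called in all of them. With 1 library left out, 3 to 5 members were called higher and 2 to 3 lower. Log2 fold changes then ranged from -0.32 to -0.24 for Clock, called in 2 of 6 such fits, from 0.46 to 0.69 for Per3, called in 5, and from 0.071 to 0.33 for Cry2, called in 1. With DESeq2 Clock was at -0.27 and not called, and with limma on log2(FPKM + 1) with no filter Per3 was at 0.34 and not called. The cause was not tested in either case. The log2 ratio of Per1 to Per2 turned round, to 0.077 with 1 FPKM added to both genes and to 0.038 without young 2 (-0.67 to 0.038 with a library left out). GENCODE lengths, an alternative chosen after seeing the data, shift each ratio alike in all libraries and leave the 9 differences between groups as they were.

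Over all genes, 1467 were higher and 1368 lower. With a library left out these counts ranged from 850 to 1597 and from 682 to 1444, lowest without young 1 and young 3. With library size alone 2122 were lower. On FPKM values 907 (pseudocount 1), 897 (pseudocount 0.1) and 810 (no filter) were higher. The share of calls that were higher was 51.7%, but 32.7% with library size alone, 40.2% under upper-quartile scaling, and 35.1% or, with no filter, 38.1% on FPKM values. With a library left out the stabilising loop list had 4 to 8 higher genes, the kinase and turnover list 2 to 4 lower ones, and the cofactor list 0 to 1 higher and 0 to 2 lower ones.

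Same-numbered old and young libraries deviated together only weakly over genes (correlations 0.08, 0.08 and 0.01), and the numbers were not taken as pairs. Old 1 and old 2 each correlated best with their own number, and old 3 with young 1 (0.06). With the replicate number as a block 2734 genes were called, against 2835, the same 4 and 3 members were counted higher and lower, and the kinase and turnover list had 2 lower genes, against 4. Depth limits Ciart most, at 15 to 20 counts in young libraries.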
